A study of Mus musculus with 2 samples.

Results

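The 5 genes of the miR-200 family (Mir200a, Mir200b, Mir429, Mir200c and Mir141) and a pair of skin miRNA genes, Mir203 and Mir205, were described in mouse cerebral cortex. They were chosen by name from the GENCODE M21 annotation and are 7 of the 2202 miRNA genes counted. All 7 were detected, here meaning at least 2 CPM (counts scaled to the library's total over all gene lines) in both libraries, as were 438 genes in all. The data are microRNA sequencing of RNA below a size limit from 2 libraries of 1 group. Both are cortex of strain B6NCrl mice, labelled as wild-type female controls with no treatment, and the age and sex fields read as not collected. The labels number the libraries as biological replicates 1 and 2 but cite the same donor record, so the spread between them may be technical in part. A cited document on adapter trimming also differs between the libraries. Replicate and trimming can therefore not be told apart.

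MicroRNAs (miRNAs) are short RNAs cut from hairpin precursors that repress messenger RNAs carrying a match to the seed, the bases near the miRNA's 5′ end. The miR-200 family is known as a mark of epithelial cells. Its members repress Zeb1 and Zeb2, transcription factors that silence E-cadherin, and the Zeb factors in turn repress the miR-200 genes. The family is also known from olfactory and other sensory epithelia, while neurons of the cortex are not counted among its main sources. Mir203 and Mir205 are known from skin and other stratified epithelia.

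The family carries a pair of seeds, which is shown here because the genes of a seed group give rise to miRNAs with the same target match. The mature arm usually taken as the active one is printed for each gene from RefSeq (GRCm38.p6), 5′ to 3′, with the seed (bases 2 to 8) in capitals. The deposited counts are per precursor and do not tell the arms apart.
miR-200b-3p: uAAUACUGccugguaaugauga
miR-200c-3p: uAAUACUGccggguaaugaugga
miR-429-3p: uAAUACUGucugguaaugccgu
miR-200a-3p: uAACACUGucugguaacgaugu
miR-141-3p: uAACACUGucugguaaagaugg
miR-203-3p: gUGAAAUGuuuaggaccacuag
miR-205-5p: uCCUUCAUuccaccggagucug

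The seed AAUACUG was shared by miR-200b, miR-200c and miR-429, and AACACUG by miR-200a and miR-141. They differ by the substitution U4C, counted from 1 at the 5′ end, with the miR-200b base first. No other gene of the RefSeq miRNA table had a mature arm with either seed, and none shared the seed of miR-203-3p or miR-205-5p. Each seed of the family occurs in both genomic clusters. The closest arms across the clusters were miR-200b-3p and miR-200c-3p, which differed by U11G and A22G over 22 positions, and miR-200a-3p and miR-141-3p, which differed by C17A and U22G.

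Reads placed at several loci enter no gene's count, so the likeness of these arms bears on what could be counted. The longest run shared by any pair of family precursors was 17 nt, between Mir200a and Mir141. For Mir200b and Mir200c it was 14 nt. A longer read without mismatches thus has a single family precursor to match. Reads with a mismatch could be placed otherwise, and the aligner's tolerance is not given in the sources used here. The precursor of Mir203 shared a run of 60 nt with the reverse complement of Gm51289, the gene of miR-203b on the opposite strand. The sense column used here counts 1 strand only, and Gm51289 was not among the annotated genes that overlap Mir203 in GENCODE M21.

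The family lies in 2 clusters (mm10, counted from 1). On chromosome 4, on the minus strand, Mir200b (156055681 to 156055750), Mir200a (156054896 to 156054985) and Mir429 (156053905 to 156053987) lie within 1846 bp, with gaps of 695 and 908 bp. Mir200b and Mir200a lie in the intron of the noncoding gene Gm13648 and Mir429 lies whole in an exon of it. All 3 also lie within introns of Ttll10. On chromosome 6, on the minus strand, Mir200c (124718322 to 124718390) and Mir141 (124717914 to 124717985) lie within 477 bp, with a gap of 336 bp, in introns of the noncoding gene Gm15884. Mir141 overlaps part of an exon of Gm29008. Mir205 (chromosome 1, 193507463 to 193507530) lies in an exon of 4631405K08Rik, which RefSeq calls Mir205hg. Mir203 (chromosome 12, 112130880 to 112130955, plus strand) lies in no other annotated gene on its strand. No annotated gene overlaps any of the 7 on the opposite strand.

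**Figure D1:**
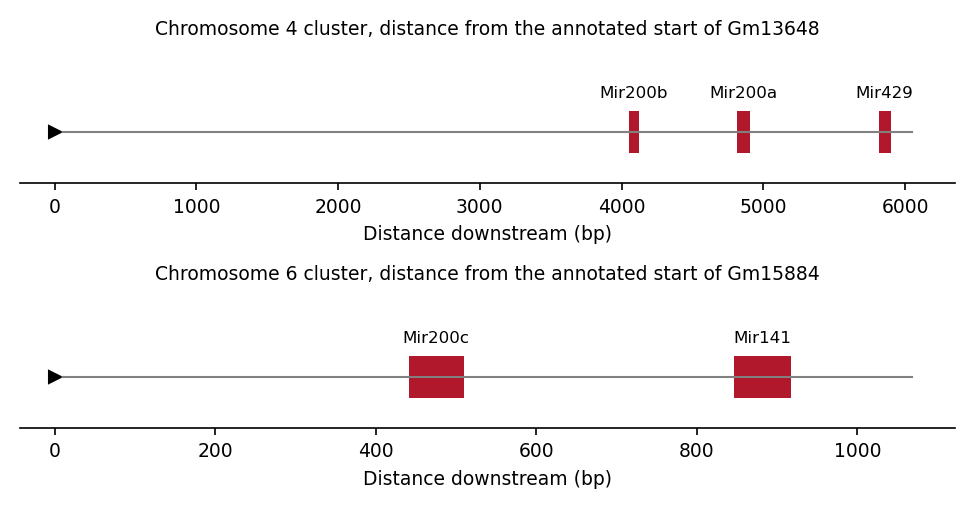
Maps of the 2 clusters, with the distance in bp downstream of the annotated start of the noncoding host gene on the x axis and each precursor drawn to scale as a box. Mir200b begins 4052 bp after the start of Gm13648 and Mir200c begins 441 bp after that of Gm15884.

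Zeb factors are known to bind E-boxes of the form CACCTG in the promoters of these clusters, so the 1 cluster promoter held in the RefSeq table was searched. The window of Gm13648, 250 bases before to 50 after its start (chr4:156059753-156060052, minus strand, GRCm38.p6), is printed with matches to CACCTG, or to its reverse complement CAGGTG, in capitals.
Gm13648 promoter: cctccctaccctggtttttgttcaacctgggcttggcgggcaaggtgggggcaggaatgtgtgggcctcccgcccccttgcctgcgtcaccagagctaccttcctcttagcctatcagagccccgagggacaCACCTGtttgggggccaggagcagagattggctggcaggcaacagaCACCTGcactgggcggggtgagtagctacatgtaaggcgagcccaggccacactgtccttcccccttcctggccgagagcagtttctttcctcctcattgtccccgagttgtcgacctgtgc
It held 2 matches, starting 118 and 72 bases before the start. Of 32851 promoter windows of this length, 20.2% held at least 1 match and 2.88% held 2 or more. The Mir205hg window held 1. The match is a description of these letters and not of binding, which was not measured.

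The depth was 4429633 sense counts over all gene lines in replicate 1 and 6985784 in replicate 2. A count of 0 allows up to 0.677 CPM and 0.429 CPM (a floor of 3 counts). Reads placed at several loci made up 43.9% and 47.9% of the reads in the tables. Intervals below are 95% and cover counting error only, since they are computed from the counts without replication. The reads carry no molecular identifiers, so copied molecules count as separate reads and the intervals may be too narrow. All 8 genes of a cortical neuron list were detected, at a summed 78497 and 93912 CPM. That sum was mostly Mir132 (42570 and 61586 CPM). Mir128-1 and Mir128-2 were also higher in replicate 2 on CPM, and Mir212, Mir138-1, Mir138-2, Mir598 and Mir129-2 were lower. No list of another brain region was read beside the neuron list, so the tissue label was not tested.

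Together the 5 family genes took up 1.28% of all counts in replicate 1 (Wilson interval 1.27 to 1.29). In replicate 2 the share was 0.199% (0.195 to 0.202), which gives a mean of 0.738% ± 0.763 (SD, n = 2). The SD exceeds the mean, and fewer cells of a type and less RNA per cell cannot be told apart in such bulk tissue. The chromosome 6 cluster held 0.672% and 0.0511%, and the chromosome 4 cluster 0.605% and 0.148%. These shares, and the ranks below, leave out reads placed at several loci. Genes with like copies elsewhere may therefore be counted too low beside the family.

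Mir200c, from which a miRNA of the AAUACUG group is cut, had 27393 counts in replicate 1 and 3283 in replicate 2, or 6184 and 470 CPM. Among the 2202 genes, 1415 of them with no count in either library, it ranked 34 in replicate 1 and 127 in replicate 2. Its cluster partner Mir141, of the AACACUG group, had 2383 and 284 counts (538 and 40.7 CPM). Both genes of this cluster were high in replicate 1 and low in replicate 2.

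Mir200b, the first gene of the chromosome 4 cluster in the direction of transcription, had 11341 and 6291 counts (2560 and 901 CPM). Mir429, the last, had 12808 and 3542 (2891 and 507 CPM). Mir200a, between them and of the other seed group, had 2654 and 476 (599 and 68.1 CPM). All 3 were again higher in replicate 1, Mir200b by the least.

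The skin genes were low. Mir203, whose miRNA is known to restrain stem-like growth of epidermal cells, had 207 counts in replicate 1 and 475 in replicate 2 (46.7 and 68.0 CPM). Mir205, known from basal cells of stratified epithelium, had 80 and 42 counts (18.1 and 6.01 CPM). Only Mir203 of the 7 genes was lower in replicate 1.

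**Figure D2:**
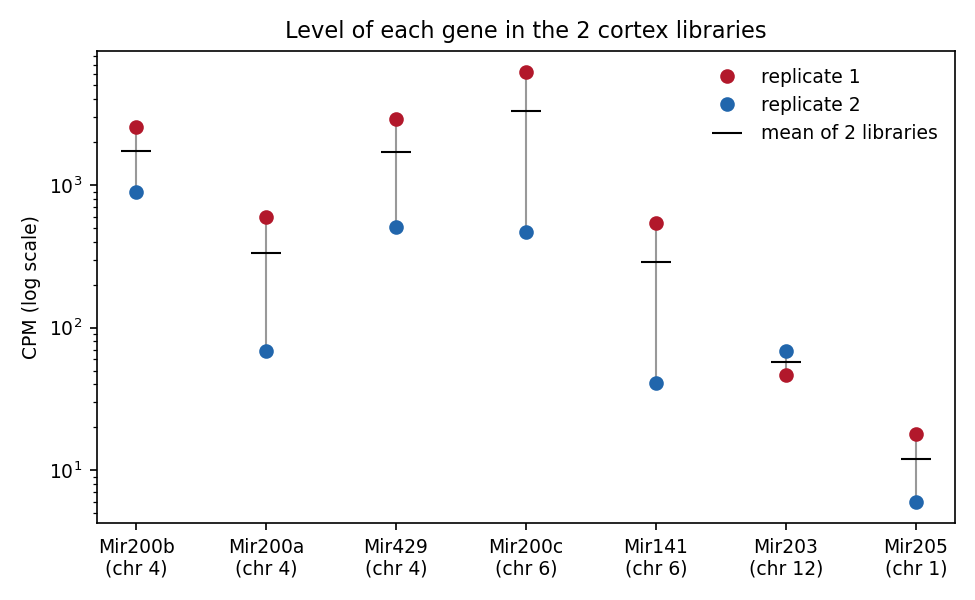
CPM (log scale) of the 7 genes in replicate 1 (red) and replicate 2 (blue), with a black dash at the mean of the 2 libraries and a grey line joining them. Replicate 1 is above replicate 2 for every gene except Mir203, and the gap is widest for Mir200c and Mir141.

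Levels between genes were ordered as CPM per base of precursor. In replicate 1 the order was Mir200c (89.6), Mir200b (36.6), Mir429 (34.8), Mir141 (7.47), Mir200a (6.66), Mir203 (0.615) and Mir205 (0.266). In replicate 2 it was Mir200b (12.9), Mir200c (6.81), Mir429 (6.11), Mir203 (0.895), Mir200a (0.757), Mir141 (0.565) and Mir205 (0.0884). Mir200c thus led the family in replicate 1 and Mir200b in replicate 2. On plain CPM, which suits miRNAs read from end to end, some neighbours swap places: Mir429 with Mir200b and Mir200a with Mir141 in replicate 1, and Mir429 with Mir200c and Mir200a with Mir203 in replicate 2. Per base, the ranges over the 2 libraries overlap between neighbours in the order of replicate 1 from Mir200c down to Mir203. Mir205 lay below the other 6 genes in each library. How well each sequence is taken up in library preparation was not measured, so these orders are of counts and not of molecules.

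The member ratios inside each cluster were next compared between the libraries, since the scaling of the libraries cancels in such a ratio. In the chromosome 6 cluster the ratio differed by less than counting error. Mir200c made up 92.0% of the cluster's counts in replicate 1 (Wilson interval 91.7 to 92.3) and 92.0% in replicate 2 (91.1 to 92.9). There were 11.5 counts of Mir200c for each of Mir141 in replicate 1 and 11.6 in replicate 2. The ratio of these ratios, replicate 2 over replicate 1, was 1.01 (exact interval 0.884 to 1.15), with an adjusted p of 0.984 by Fisher's exact test.

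In the chromosome 4 cluster the ratios differed. Mir200b made up 42.3% of the cluster in replicate 1 (Wilson interval 41.7 to 42.9) and 61.0% in replicate 2 (60.1 to 62.0). Mir429 made up 47.8% (47.2 to 48.4) and 34.4% (33.4 to 35.3), and Mir200a 9.90% (9.55 to 10.3) and 4.62% (4.23 to 5.04). Mir429 was thus the leading gene of the cluster's counts in replicate 1 and Mir200b in replicate 2.

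**Figure D3:**
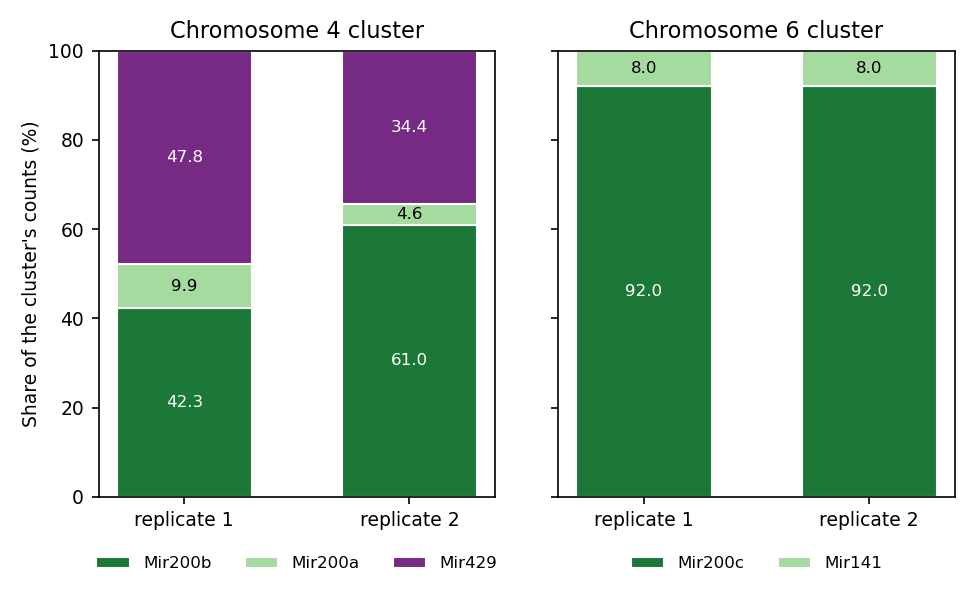
Share of each cluster's counts (%, y axis) from each of its genes in the 2 libraries, as stacked bars that start at 0. Mir200b makes up 42.3% of the chromosome 4 cluster in replicate 1 and 61.0% in replicate 2, while the shares of Mir200c and Mir141 differ by less than their intervals.

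Each pair of detected, non-overlapping miRNA genes on the same strand within 10 kb was tested in the same way, 376 pairs in all. A pair counted as changed where its ratio moved by at least 2 times between the libraries with an adjusted p under 0.05 (two-sided Fisher's exact test, Benjamini-Hochberg over all pairs), which 23.1% of pairs were. The test compares these libraries and their counting error, not conditions, and the pairs of a cluster share genes. On chromosome 12, which holds 295 of the pairs, 21.4% passed, and 29.6% of the other 81 did. Of the 4 pairs inside the Mir200 clusters, 2 were called. There were 4.27 counts of Mir200b for each of Mir200a in replicate 1 and 13.2 in replicate 2, a change of 3.09 times (adjusted p = 3.45e-124 by Fisher's exact test). A change of that size or larger was seen in 4.52% of all pairs. For Mir200b against Mir429 the ratio was 0.885 and 1.78, a change of 2.01 times (adjusted p = 4.78e-179 by Fisher's exact test), just past the limit, and 22.6% of pairs changed by as much. For Mir200a against Mir429 it was 0.207 and 0.134, a change of 1.54 times (adjusted p = 1.19e-16 by Fisher's exact test), short of a call and near the median of all pairs, 0.60 on the log2 scale. The Mir200c and Mir141 pair was at the other end, with a change as large or larger in 99.2% of pairs.

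**Figure D4:**
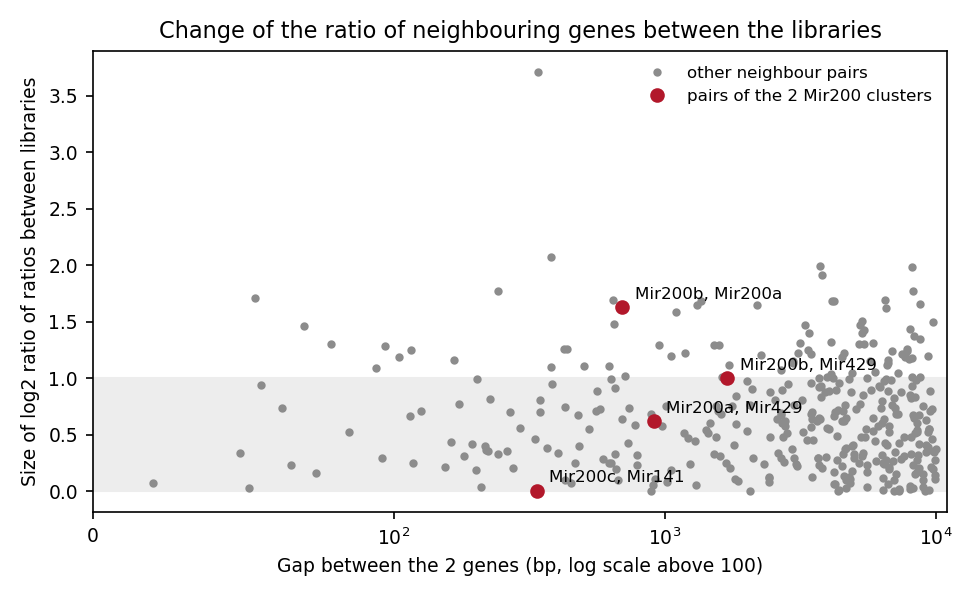
Size of the change in the ratio of neighbouring genes between the libraries (absolute log2, y axis) against the gap between the genes (bp, x axis), for 376 pairs, with the grey band below a change of 2 times. The pair of Mir200c and Mir141 lies at 0.01 and that of Mir200b and Mir200a at 1.63, above the band.

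Between the clusters the balance also differed. The chromosome 6 cluster held 52.6% of the family's counts in replicate 1 (Wilson interval 52.2 to 53.0) and 25.7% in replicate 2 (25.0 to 26.4). Mir200b and Mir200c, the genes of near-identical arms, stood at 0.414 counts of Mir200b for each of Mir200c in replicate 1 and 1.92 in replicate 2, a ratio of ratios of 4.63 (exact interval 4.41 to 4.86). Mir200a and Mir141, the other such pair, stood at 1.11 and 1.68, a ratio of ratios of 1.505 (1.28 to 1.77). Of the 10 pairs of family genes, Mir200b with Mir141 changed the most, by 4.65 (4.10 to 5.30), and Mir200c with Mir141 the least.

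The shares of the 2 seed groups of genes were compared too, by whole precursor, so reads of the other arm are included. Genes with the seed AAUACUG held 91.1% of the family's counts in replicate 1 (Wilson interval 90.9 to 91.3) and 94.5% in replicate 2 (94.1 to 94.9). Those with AACACUG held 8.90% (8.67 to 9.14) and 5.48% (5.11 to 5.87). Inside the AAUACUG group, Mir200c made up 53.1% in replicate 1 and 25.0% in replicate 2, Mir200b 22.0% and 48.0%, and Mir429 24.8% and 27.0%. So Mir200c held most of this group's counts in replicate 1, and Mir200b led in replicate 2. Inside the AACACUG group Mir200a made up 52.7% and 62.6%.

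Last, each gene was set against all detected genes between the libraries. The ratio was taken as replicate 2 over replicate 1 after TMM scaling, and calls needed a ratio of at least 2 besides an adjusted p under 0.05 (exact two-sided binomial test, Benjamini-Hochberg over 438 genes). Over all genes 18.0% met this, with 8.68% on the side of replicate 1 and 9.36% on that of replicate 2, so calls in either direction are common and the test again compares 2 libraries only. Of the 7 members, 6 were called, all higher in replicate 1. The 5 family genes among them lie in 2 clusters, so these are not 6 separate outcomes. The median log2 ratio of the 7 members was -2.39, beside -0.03 over all 438 genes.

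By cluster, the log2 ratios were -3.59 for Mir200c (exact interval -3.65 to -3.54) and -3.60 for Mir141 (-3.78 to -3.42), 12.1-fold higher in replicate 1 in each case. They were -3.01 for Mir200a (-3.15 to -2.87), -2.39 for Mir429 (-2.44 to -2.33) and -1.38 for Mir200b (-1.43 to -1.34), or 8.05-fold, 5.23-fold and 2.61-fold higher in replicate 1. The adjusted p of these 5 genes in the exact binomial test was 0 at the precision of the computation. The intervals of Mir200c and Mir141 overlap, and no other pair of the 5 does. Mir205 was 2.74-fold higher in replicate 1 (log2 ratio -1.45, exact interval -2.04 to -0.91, adjusted p = 1.17e-07 by the exact binomial test). Its interval holds the value of Mir200b. Mir203 went the other way at a log2 ratio of 0.66 (0.43 to 0.91), and its ratio of 1.58 was short of a call (adjusted p = 3.40e-08 by the exact binomial test).

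**Figure D5:**
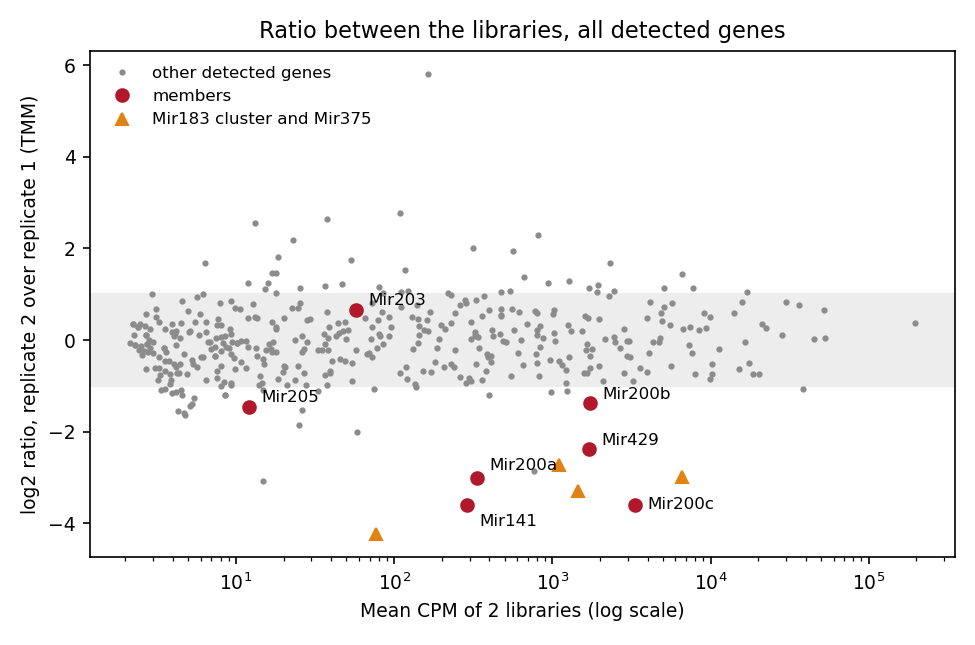
Log2 ratio of replicate 2 over replicate 1 after TMM scaling (y axis) against the mean CPM of the 2 libraries (log scale, x axis) for the 438 detected genes, with the grey band within a ratio of 2 either way. The 7 members are in red. Of these, the 5 miR-200 genes lie between -1.38 and -3.60, Mir205 at -1.45 and Mir203 inside the band. The Mir183 cluster with Mir375 (orange triangles) lies between -2.74 and -4.24.

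Precursor GC of the 7 genes ran from 48.7% in Mir203 to 55.1% in Mir200c. Over detected genes the median was 53.2% and the range 29.1% to 91.6%.

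Genes most like the family were taken as the 5 with a mean of at least 100 CPM whose log2 ratio was nearest to the family's median of -3.01. With only 2 libraries this measures a single ratio. They were Mir183 (-2.99), Mir185 (-2.86), Mir375 (-2.74), Mir182 (-3.29) and Mir500 (-1.21), the last at a distance of 1.80. Mir183 and Mir182 belong to a cluster known from sensory organs, and Mir375 is known from endocrine cells. Mir185, the second nearest, and Mir500 are in none of the cell type lists read below.

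Lists of miRNAs of other cell types were read beside the family, as values whose part in the family's ratio was not tested. Their calls stand beside the 8.68% of all genes called toward replicate 1 and the 9.36% called toward replicate 2. In the sensory organ and endocrine list, 4 of 4 genes (Mir183, Mir182, Mir96 and Mir375) passed as higher in replicate 1. Their summed level was 16639 CPM in replicate 1 and 1893 in replicate 2. Of this list, Mir183, Mir182 and Mir375 are among the 5 nearest genes above, which were picked by this same ratio. Their calls are therefore not a separate result, and Mir96 lies 116 bp from Mir183 in the same cluster. The list was also chosen with earlier results of these data known. Inside that list, the neighbours Mir183 and Mir96 changed in ratio by 1.25 on the log2 scale, which was the 1 call among the cluster's 3 pairs, beside 23.1% of all pairs. The log2 changes of Mir96 with Mir182 (-0.96) and of Mir183 with Mir182 (0.29) were short of a call. The choroid plexus genes Mir204 and Mir211 both passed toward replicate 2 (a summed 781 and 1764 CPM). That sum was mostly Mir204 (778 and 1755 CPM), and Mir211 was low, with 14 and 67 counts (3.16 and 9.59 CPM). Of the 5 multiciliated genes, 3 were tested and Mir34b and Mir34c passed toward replicate 2. Mir449a, the other gene tested, was not called (220 and 370 counts, log2 ratio 0.22). Mir449c had 7 and 4 counts and Mir449b 0. The list's summed 393 and 708 CPM was mostly Mir34c (325 and 620 CPM). Of Mir31 and Mir184, surface epithelium genes, Mir31 was called higher in replicate 2 (1257 and 2658 CPM) and Mir184 was not called. The 4 intestine and kidney genes were low, at a summed 22.1 and 22.2 CPM with Mir215 at 0 counts, with no call among the 2 tested. Of 5 blood genes, 3 were tested and none was called. Their summed 858 and 1233 CPM was mostly Mir150 (837 and 1207 CPM). The red blood cell gene Mir451a was under the detection minimum in replicate 1 and so not tested. It had 8 counts in replicate 1 and 75 in replicate 2 (1.81 and 10.7 CPM). Mir144, also not tested, went the other way, with 3 counts in replicate 1 and 0 in replicate 2. The log2 ratios of the tested blood genes were -0.06 for Mir486, -0.03 for Mir223 and 0.65 for Mir150. A difference in blood content between the libraries was not tested.

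Of 10 other miRNAs reported to target Zeb or Snai factors, 10 were tested. Mir153, a neuronal miRNA, was higher in replicate 1 (175 and 88 counts, log2 ratio -1.52), and Mir34b and Mir34c were higher in replicate 2 (1.13 and 1.06). The other 7, Mir34a and Mir30a among them, were not called. The 3 calls of 10 stand beside 18.0% over all genes, and the list's median of 0.45 beside -0.03. Its log2 ratios ran from -1.52 for Mir153 to 1.13 for Mir34b. The calls of Mir34b and Mir34c, which are neighbours, are those already given for the multiciliated list. Mir138-1 and Mir138-2 are also in the cortical neuron list.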

How the data were processed

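The authors deposited, per library, raw read counts per annotated miRNA gene for either strand and for each strand. They use mm10 and the M21 annotation, per the labels and a readme. For the aligner and counter, the names are not given in the sources at hand. The 4 summary lines naming no gene were left out. The sense column was scaled to CPM of all gene lines. Genes at 2 CPM or more in both libraries were tested by exact binomial tests given library sizes from TMM (edgeR 4.0.16, over detected genes), and neighbouring pairs by Fisher's exact test. Ratios add 0.5 counts to each count. DESeq2 1.42.0 size factors were an alternative. Both tests were tested on simulated counts that held counting error only. That check cannot show how the tests behave where libraries differ by more than counting error. Statistics used scipy 1.17.1 in Python 3.11.15.

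The text names all 7 members, the 5 nearest genes and marker genes beside a result. Members, lists and rules were chosen with earlier results of these data known. With 1 group no condition was compared. Depth limits mainly Mir205 and Mir203.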

Additional observations from a re-analysis of the deposited data

Results flagged for a closer look

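The opposite-strand column was not used in the comparisons. There Mir200a had 6 counts in replicate 2, above the 3 counts that a count of 0 allows, beside 476 sense counts. In replicate 1 it had 3 opposite-strand counts.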

How the results depend on the processing

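The count of members called between the libraries was 6 with library totals, DESeq2 size factors, no filter and the either-strand column. It was also 6 with the GC trend removed and with the deeper library thinned. At a ratio of at least 1.5 it was 7, with Mir203 added toward replicate 2. Over all genes the shares called were 19.2%, 17.4%, 11.9%, 17.1%, 12.8%, 18.3% and 39.0% in that order, beside 18.0%. The direction of all 7 log2 ratios held in each of these settings. With adjacent pairs only, 1 pair of the Mir200 clusters was called in place of 2, because Mir200b and Mir429 are not adjacent. Over all adjacent pairs 29.5% were called. The number called inside the Mir200 clusters was 2 with the either-strand column, no filter and the GC trend removed. Over all pairs 22.3%, 17.6% and 19.7% were called in these settings. With the GC trend removed, the Mir200c and Mir141 pair was at 0.18 on the log2 scale (adjusted p = 0.0790 by Fisher's exact test).

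The count of all genes called was 56 with the GC trend removed and 171 at a ratio of 1.5, beside 79. Leaving out a library leaves no ratio, so those alternatives were not run. Without replicate 1 or 2, the family's share of counts was 0.199% to 1.28%, and the median member level 68.1 to 599 CPM. Mir200b then held 42.3% to 61.0% of its cluster, Mir429 34.4% to 47.8%, Mir200a 4.62% to 9.90%, and Mir200c 92.0% of its own. Genes with the seed AAUACUG held 91.1% to 94.5% of the family. No paired analysis was possible because there is only 1 group.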
